A study of Mus musculus with 6 samples.

Results

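The aminoacyl-tRNA synthetases, the enzymes that join each amino acid to its transfer RNA, were examined in brown adipose tissue (BAT). The set holds 36 gene symbols that name a synthetase or a synthetase subunit. All 36 were found among the 23282 rows of the count tables, and all 36 passed the filter on low counts. It was split by the compartment the enzyme serves, into 20 cytosolic and 16 mitochondrial genes, the latter with symbols ending in 2. Gars and Kars, which each encode the enzyme of both compartments, were kept with the cytosolic genes and are also described on their own. The rule names the genes by symbol.

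BAT of 3 wild-type and 3 Letmd1 KO mice was compared, all male, 5 weeks old and of strain C57BL/6N, and no treatment is given in the labels. The KO mice were homozygous for a knockout-first allele, with a lacZ and neo cassette inside the Letmd1 gene, so that Letmd1 was missing from the whole body and not from brown adipocytes alone. The RNA came from whole tissue, and libraries were made with QuantSeq, whose reads come from the 3′ ends of mRNAs. A count therefore does not scale with transcript length, and levels of different genes are set side by side as 3′ counts.

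A mammalian cell needs separate sets of synthetases for translation in the cytosol and for translation of the few proteins encoded by mitochondrial DNA. Both sets are encoded in the nucleus, and the mitochondrial enzymes are made in the cytosol and imported. Most amino acids have a gene for each compartment, but glycine and lysine share a gene. Mitochondrial glutaminyl-tRNA is made by charging with glutamate and converting it afterwards. Synthetases fall into 2 classes by the fold of their catalytic domain, and several cytosolic enzymes sit together in the multisynthetase complex. Uncharged transfer RNA activates the kinase GCN2 (Eif2ak4), and the factor ATF4, which is translated under such stress, is known to bind promoters of many cytosolic synthetase genes. Mitochondria are abundant in brown adipocytes, where UCP1 turns respiration into heat.

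The promoter letters that fit the core of the element bound by C/EBP and ATF factors are shown because they were found in cytosolic members and in none of the mitochondrial ones searched. The search used TGATGNAA on both strands, where N is any base, in RefSeq windows on GRCm38.p6 from 250 bases before to 50 bases after each start site. A window was found for 27 members. There was none in the table for Cars, Hars, Lars, Nars, Rars, Vars, Wars, Hars2 and Pars2. Of 13 cytosolic genes with a window, 5 held the letters (Aars, Gars, Iars, Tars and Yars). Of 14 mitochondrial genes with a window, 0 held them. Over all genes in the table, 4.51% of 27025 had a window with the letters. In the sequences printed here, each read 5′ to 3′ along its gene's strand, the match is in capitals, and TTGCATCA or TTTCATCA is the same element on the opposite strand. The match begins 112 bases before the start site in Aars, 30 bases before it in Gars and 15 bases before it in Tars. It begins 7 bases after the start site in Iars and 3 bases after it in Yars.
Aars, chr8:111033684-111033783, plus strand: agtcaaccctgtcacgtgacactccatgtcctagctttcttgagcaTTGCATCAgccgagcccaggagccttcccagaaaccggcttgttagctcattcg
Gars, chr6:55037925-55038024, plus strand: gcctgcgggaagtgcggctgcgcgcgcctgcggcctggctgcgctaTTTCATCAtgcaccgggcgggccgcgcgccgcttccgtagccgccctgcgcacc
Iars, chr13:49682091-49682179, plus strand: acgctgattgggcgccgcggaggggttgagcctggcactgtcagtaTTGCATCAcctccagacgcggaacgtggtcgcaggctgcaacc
Tars, chr15:11399620-11399719, minus strand: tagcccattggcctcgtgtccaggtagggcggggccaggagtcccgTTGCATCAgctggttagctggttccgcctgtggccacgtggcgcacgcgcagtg
Yars, chr4:129189860-129189952, plus strand: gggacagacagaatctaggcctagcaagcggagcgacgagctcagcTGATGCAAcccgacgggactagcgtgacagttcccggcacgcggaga

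The Aars window held a second match, TTTCATCA, 9 bases after its start site. A match gives the letters only and was not tested as a binding site.

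Each mouse had between 6669577 and 14574273 counts in all, and between 15382 and 52294 of them fell on the synthetases. Levels are given as CPM, counts brought to a common library size, with libraries scaled with edgeR's TMM method, and a floor of 3 counts lay between 0.176 and 0.397 CPM. The scaling factors were between 0.852 and 0.886 in the wild-type mice and between 1.14 and 1.17 in the KO mice, so results that rest on the scaling are marked. Wild-type mice 1 to 3 gave 5658, 6490 and 5266 counts for Letmd1, against 0, 0 and 1 in their KO counterparts, which matched the labels of all 6. All 10 adipocyte markers, general ones such as Fabp4 included, were above 0 in every mouse. Ucp1, the marker particular to brown adipocytes, had a mean of 6328 CPM in wild-type and 382 CPM in KO BAT. The sum of the 10, most of it from Fabp4, was between 40120 and 45590 CPM in wild-type BAT and between 12410 and 16180 CPM in KO BAT. Of these markers, 0 were higher and 8 lower in KO BAT. All 13 macrophage markers were higher in KO BAT, with sums of 185 to 262 CPM against 1522 to 3681 CPM, and in wild-type mice 2 and 3 there was 1 of the 13 at 0. Skeletal muscle markers summed to 87.8, 527 and 100.01 CPM in the wild-type mice, with 8, 0 and 6 of the 15 at 0, and to 482, 376 and 1373 CPM in the KO mice, where none was at 0. Of 14 muscle markers tested, 2 were higher, and the median log2 fold change of the 14 was 2.16. Beside each of these marker counts, 23.7% of all genes tested were higher and 22.3% were lower. Endothelial markers had 1 higher and 3 lower of 9, and of 5 erythroid markers tested none passed the threshold in either direction with edgeR. At an unadjusted p under 0.05 (edgeR) 1 erythroid marker was lower, and the share of all genes at that threshold was not computed. In whole tissue, fewer cells of a type cannot be told apart from less RNA per cell, and the part these other cell types have in the synthetase results was not tested. The p-values measure the spread between these mice.

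Of the 20 cytosolic genes, 14 were higher in Letmd1 KO BAT and 0 were lower at an adjusted p under 0.05 (quasi-likelihood test of edgeR, adjusted by Benjamini-Hochberg over all 12995 genes tested). DESeq2 gave the same counts, and at an unadjusted p under 0.05 edgeR had 17 higher and 0 lower. The share of all genes at that unadjusted threshold was not computed. At the adjusted threshold, 23.7% of all genes tested were higher and 22.3% were lower, 46% in either direction. The 14 were Mars, Wars, Eprs, Aars, Iars, Sars, Nars, Cars, Lars, Yars, Vars, Gars, Tars and Rars, and their folds ran from 1.34 in Rars to 3.18 in Mars. For 7 of them the fold was at least 2, as for 14.6% of all genes tested. The median log2 fold change of the 20 genes was 0.82, beside 0.03 over all genes tested. In 17 of the 20 genes, every KO mouse lay above every wild-type mouse, as in 30.1% of all genes tested. The only cytosolic gene with every KO mouse below every wild-type mouse was Qars, an arrangement seen in 27.2% of all genes tested.

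**Figure D1:**
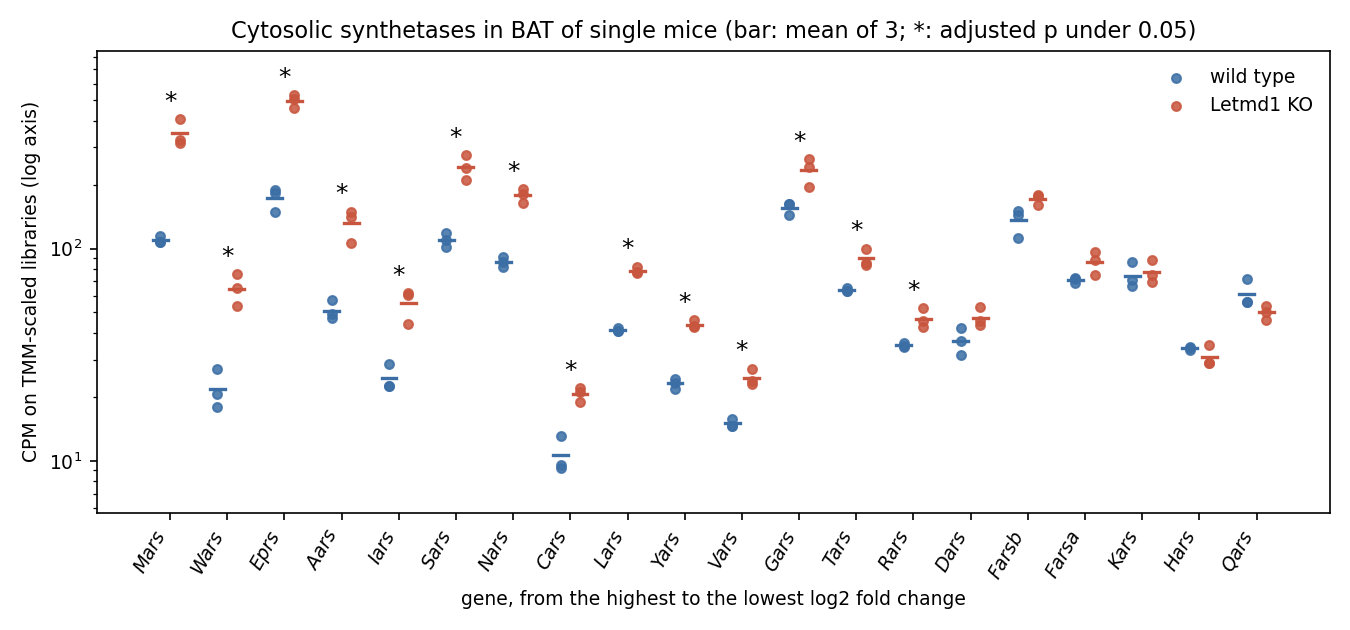
The 20 cytosolic genes are ordered from the highest to the lowest log2 fold change, with CPM on a log axis, 1 point per mouse, a bar at the mean of 3 mice and a star at an adjusted p under 0.05. The KO points stand clear above the wild-type points from Mars on the left to Farsa, and overlap them in Kars and Hars.

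Mars, the methionyl enzyme, which also charges the initiator transfer RNA, rose most. It had 108, 114 and 107 CPM in the wild-type mice and 324, 315 and 408 CPM in the KO mice, so the lowest KO mouse was far above the highest wild-type mouse. The log2 fold change was 1.67 with a standard error of 0.13 (adjusted p = 1.66e-05, edgeR). Mars lies on the minus strand at chr10:127296221-127311786 in the GENCODE annotation of GRCm38, and its 3′ end shares 68 bases with that of Ddit3 on the plus strand. Ddit3 encodes CHOP, a factor induced by ATF4, with 816, 770 and 547 counts in wild-type BAT and 4766, 3640 and 11480 in KO BAT. Whether strand was used for counting is not given in the sources used here, so reads in the shared bases cannot be told apart. The mean of Mars rose by 239.3 CPM and that of Ddit3 by 479.9 CPM. With Mars left aside, 13 of 19 cytosolic genes were higher and the median log2 fold change was 0.71.

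Eprs, a single protein that holds both the glutamyl and the prolyl enzyme, was the most abundant cytosolic synthetase in wild-type BAT. It had 188, 182 and 149 CPM in the wild-type mice and 527, 461 and 507 CPM in the KO mice, with no overlap. The log2 fold change was 1.52 ± 0.12 (SE; adjusted p = 2.24e-05, edgeR). No other gene of the annotation overlies the last 500 bases of Eprs, which runs along chr1:185363044-185428360 on the plus strand.

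Wars charges tryptophan and is also known as a gene induced by interferon gamma. Its levels were 18, 20.6 and 27.1 CPM in the wild-type mice and 65.1, 53.7 and 75.6 CPM in the KO mice. They did not overlap, and the mean was 21.9 ± 4.70 CPM (SD, n = 3) in wild-type and 64.8 ± 11.0 CPM (SD, n = 3) in KO BAT (log2 fold change 1.57 ± 0.19 SE, adjusted p = 0.000166, edgeR). Of 15 genes known to respond to interferon, 11 were higher in KO BAT and 0 lower, beside 23.7% and 22.3% of all genes tested. Sums over the 15 were 336, 317 and 370.4 CPM in wild-type mice and 727, 883 and 562 CPM in KO mice. The part of these genes' shift in the Wars result was not tested.

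Aars charges alanine and has an editing site that clears serine put on its transfer RNA by mistake. Its levels were 48.9, 57.1 and 46.9 CPM in wild-type mice and 149, 107 and 141 CPM in KO mice (log2 fold change 1.37 ± 0.15 SE, adjusted p = 9.46e-05, edgeR). Iars, the isoleucyl enzyme of the multisynthetase complex, had 22.4, 28.6 and 22.4 CPM against 60.4, 44.1 and 61.7 CPM. Both are genes with the printed promoter letters. In both, KO mouse 2 was the lowest of the KO mice. That mouse was also the lowest in every other cytosolic gene past the threshold except Rars, with or without a match. Among these were Mars, Eprs and Sars, whose windows held no match.

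Sars charges serine and also starts the synthesis of selenocysteine on its own transfer RNA. Its levels were 109.6, 102 and 118 CPM in wild-type mice and 276, 211 and 239 CPM in KO mice. Nars, for asparagine, had 86.8, 81.7 and 91.0 CPM against 190.1, 164 and 181 CPM. Neither gene's groups overlapped, and both means changed by more than 2-fold (2.20 for Sars and 2.06 for Nars). Their adjusted p-values were 0.000106 and 6.66e-05 (edgeR).

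Lars, the leucyl enzyme, is also known as a leucine sensor for the growth kinase complex mTORC1. It had 41.0, 42.3 and 40.8 CPM in wild-type and 82.0, 77.0 and 77.4 CPM in KO mice, with SDs of 0.820 and 2.76 CPM (n = 3). Yars, for tyrosine, had 24.4, 21.8 and 23.3 CPM against 43.1, 42.6 and 45.9 CPM. Cars, for cysteine, was the least abundant cytosolic gene in wild-type BAT, at 9.59, 9.22 and 13 CPM, and had 22.0, 18.9 and 21.0 CPM in KO BAT. These 3 genes changed by similar sizes, with log2 fold changes of 0.93 ± 0.10, 0.92 ± 0.12 and 0.96 ± 0.18 (SE), and none overlapped between the genotypes. Vars, the valyl enzyme, had 14.7, 14.6 and 15.8 CPM against 27.1, 22.9 and 23.9 CPM (log2 fold change 0.71 ± 0.14 SE).

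The other cytosolic genes past the threshold had smaller changes. Tars, for threonine, had 63.1, 65.5 and 63.1 CPM in wild-type mice and 100.1, 84.0 and 85.9 CPM in KO mice (log2 fold change 0.49 ± 0.11 SE, adjusted p = 0.0053, edgeR). Rars, for arginine, had 36, 34.7 and 34.3 CPM against 52.4, 45.4 and 42.5 CPM (0.42 ± 0.13 SE, adjusted p = 0.0232, edgeR). The Rars call was lost when any of wild-type mice 1, 2 or 3 or KO mouse 1 was left out, with adjusted p-values between 0.0509 and 0.0942 (edgeR), while the log2 fold change stayed between 0.33 and 0.43. With the muscle marker level as a covariate, 11 cytosolic genes were higher. In that fit 14% of all genes tested were higher, against 23.7% without the covariate. Gars, Tars and Rars no longer passed, at log2 fold changes of 0.50 ± 0.21, 0.48 ± 0.18 and 0.47 ± 0.20 (SE), with larger standard errors than without the covariate.

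The 6 cytosolic genes that did not pass the threshold include both subunits of the phenylalanyl enzyme. Farsa and Farsb together form that enzyme. Farsa had 71.7, 72.5 and 68.6 CPM in wild-type and 96.7, 74.9 and 88.6 CPM in KO mice (log2 fold change 0.29 ± 0.12 SE, adjusted p = 0.072, edgeR). Farsb had 112, 144 and 151 CPM against 178, 160.1 and 177 CPM (0.34 ± 0.13 SE, adjusted p = 0.0563, edgeR). Both had every KO mouse above every wild-type mouse although neither passed. Leaving out KO mouse 2 brought Farsa to an adjusted p of 0.0238, and leaving out wild-type mouse 3 brought Farsb to 0.0383 (edgeR). Dars, for aspartate, had 31.4, 42.3 and 36.5 CPM against 53.1, 43.4 and 45.5 CPM (0.37 ± 0.15 SE, adjusted p = 0.0711, edgeR).

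Hars, for histidine, had 33.1, 34.0 and 34.6 CPM in wild-type mice and 34.9, 29.0 and 28.8 CPM in KO mice, which overlap. Qars, for glutamine, had 71.7, 56.1 and 55.9 CPM against 50.4, 53.9 and 45.9 CPM (adjusted p = 0.106, edgeR). These 2 were the only cytosolic genes with log2 fold changes below 0, at -0.13 ± 0.13 and -0.29 ± 0.14 (SE), and both signs turned with scaling by library size alone, to 0.29 and 0.13.

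Of the enzymes shared between cytosol and mitochondria, Gars rose and Kars did not pass the threshold. Gars, for glycine, had 144, 163 and 161 CPM in wild-type mice and 264, 196 and 241 CPM in KO mice, with no overlap (log2 fold change 0.58 ± 0.13 SE, adjusted p = 0.00541, edgeR). Kars, for lysine, had 66.3, 71.2 and 86.4 CPM against 74.9, 88.3 and 69.8 CPM, with the KO mice inside and around the wild-type range (0.06 ± 0.14 SE, adjusted p = 0.768, edgeR).

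The structural classes and the multisynthetase complex did not separate the cytosolic genes cleanly. Over all genes tested, 23.7% were higher. Of 9 cytosolic class I genes, 8 were higher, all but Qars, with a median log2 fold change of 0.93. Of 10 class II genes, 5 were higher (Aars, Sars, Nars, Gars and Tars), with a median of 0.43, and Eprs belongs to both classes. Among the 8 enzymes of the multisynthetase complex, Mars, Eprs, Iars, Lars and Rars were higher while Dars, Kars and Qars did not pass, and the median was 0.67. Of the 12 free cytosolic enzymes, 9 were higher, with a median of 0.82. The complex also holds 3 scaffold proteins without catalytic activity. Aimp2 had 17.3 ± 3.32 CPM in wild-type and 36 ± 1.91 CPM in KO BAT (SD, n = 3; log2 fold change 1.06, adjusted p = 0.000651, edgeR), and Eef1e1 had 7.86 ± 0.395 and 14.2 ± 0.644 CPM (0.86, adjusted p = 0.00352, edgeR). Aimp1, at 58.2 ± 4.19 and 69.7 ± 4.05 CPM (SD, n = 3), did not pass (adjusted p = 0.0819, edgeR).

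The promoter letters were set beside these changes as a description, with 23.7% of all genes tested higher. All 5 cytosolic genes with a match were higher in KO BAT, with log2 fold changes from 0.49 in Tars to 1.37 in Aars and a median of 0.92. Of the 8 with a window but no match (Dars, Eprs, Farsa, Farsb, Kars, Mars, Qars and Sars), 3 were higher and the median was 0.35. Those 3 were Mars, Eprs and Sars, with folds of 3.18, 2.88 and 2.20. Of the cytosolic genes without a window, Cars, Lars, Nars, Rars, Vars and Wars were also higher and only Hars did not pass. Whether these hold the letters is not known, and a link of the letters to the changes was not tested.

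The mitochondrial genes differed from the cytosolic ones in direction. Of 16 genes, 6 were lower in Letmd1 KO BAT and 0 were higher, beside 22.3% and 23.7% of all genes tested, and the median log2 fold change of the 16 was -0.37 (0.05 with library size alone). DESeq2 gave the same counts, and at an unadjusted p under 0.05 edgeR had 8 lower and 2 higher (Wars2 and Ears2). The share of all genes at that unadjusted threshold was not computed. The 6 were Fars2, Iars2, Hars2, Cars2, Vars2 and Aars2, and their KO levels were between 0.602 and 0.695 of wild type. None of the 16 was past the threshold with a 2-fold change, beside 8.84% of all genes tested that were lower by at least that much. Every KO mouse was below every wild-type mouse in 9 genes and above in 2 (Wars2 and Ears2), beside 27.2% and 30.1% of all genes tested. With library size alone, only Iars2 was lower and Wars2, Ears2 and Tars2 were higher. Under that scaling, 10.5% of all genes tested were lower and 45.4% were higher. Every KO mouse was then below wild type in 4 genes and above in 4, and the shares of all genes without overlap were not computed for it. Relative to the median over all genes, the mitochondrial median was -0.40 under both scalings, and the cytosolic median was 0.78 and 0.79. With the muscle marker level as a covariate, 3 of the 6 stayed lower (Fars2, Iars2 and Hars2), while Aars2, Vars2 and Cars2 were at log2 fold changes of -0.64 ± 0.26, -0.54 ± 0.19 and -0.43 ± 0.21 (SE) and did not pass. In that fit 13.7% of all genes tested were lower, against 22.3% without the covariate.

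**Figure D2:**
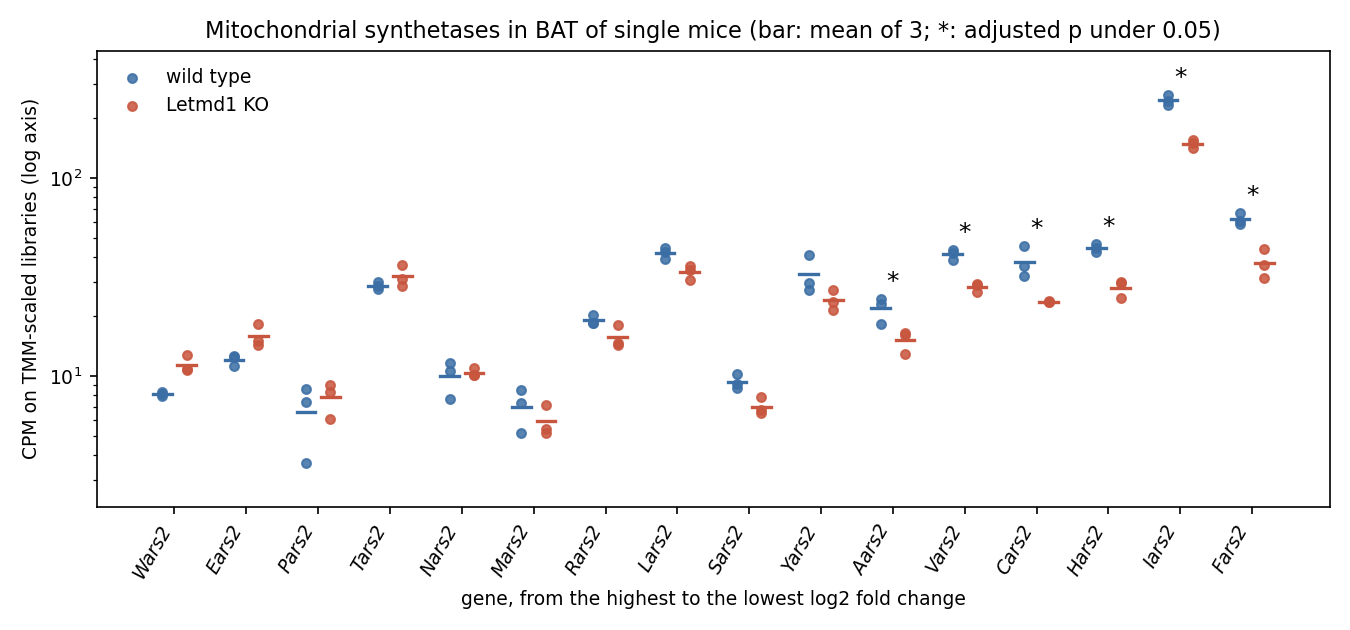
The 16 mitochondrial genes are ordered from the highest to the lowest log2 fold change, with CPM on a log axis, 1 point per mouse, a bar at the mean of 3 mice and a star at an adjusted p under 0.05. The starred genes are Aars2 and the 5 to its right, and Iars2 stands above all others at 248 CPM in wild-type and 149 CPM in KO BAT.

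Iars2, the mitochondrial isoleucyl enzyme, was by far the most abundant of them. It had 234, 246 and 263 CPM in wild-type mice and 142, 149.7 and 156 CPM in KO mice, with a wide gap between the genotypes (log2 fold change -0.73 ± 0.10 SE, adjusted p = 0.000399, edgeR). It lies on the minus strand at chr1:185284726-185329396, 33647 bases from Eprs, and of these 2 neighbours Eprs rose and Iars2 fell. Its 3′ end shares 2034 bases with Rab3gap2 on the plus strand, which went from 135 to 89.7 CPM (log2 fold change -0.59, adjusted p = 0.0012, edgeR).

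Fars2 charges phenylalanine in mitochondria as a single chain, unlike its cytosolic counterpart of 2 subunits. Its levels were 66.7, 58.5 and 60.6 CPM in wild-type and 36.4, 31.4 and 43.6 CPM in KO mice (log2 fold change -0.73 ± 0.14 SE, adjusted p = 0.00276, edgeR). Hars2 had 42.5, 46.5 and 44.6 CPM against 24.8, 29.4 and 29.7 CPM (-0.67 ± 0.13 SE, adjusted p = 0.0024, edgeR). Hars2 and Hars stand head to head on chromosome 18 and share 198 bases at their 5′ ends, and of the pair Hars2 fell while Hars did not pass the threshold.

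Cars2 is known, besides charging cysteine, for making cysteine persulfides. It had 35.8, 32.1 and 45.4 CPM in wild-type mice and 23.7, 24.0 and 23.6 CPM in KO mice, the narrowest KO group of the set (log2 fold change -0.67 ± 0.15 SE, adjusted p = 0.0064, edgeR). Vars2 had 43.6, 42.0 and 38.5 CPM against 28.9, 29.2 and 26.6 CPM (-0.55 ± 0.12 SE, adjusted p = 0.00538, edgeR). Aars2, variants of which are known to cause heart muscle disease and leukodystrophy, had 18.4, 23.0 and 24.5 CPM against 16.2, 13 and 16.5 CPM (-0.52 ± 0.17 SE, adjusted p = 0.0319, edgeR). The Aars2 call was lost when wild-type mouse 2 or 3 or any KO mouse was left out, with adjusted p-values between 0.0545 and 0.087 (edgeR), and its log2 fold change then lay between -0.43 and -0.59.

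Lars2, which charges a mitochondrial leucyl transfer RNA whose mutation causes a human mitochondrial disease, was among the 10 genes that did not pass. It had 38.8, 42.4 and 44.2 CPM in wild-type mice and 36.2, 30.4 and 34.3 CPM in KO mice, with no overlap (log2 fold change -0.31 ± 0.13 SE, adjusted p = 0.0708, edgeR). Yars2, for tyrosine, had 27.2, 29.6 and 41.1 CPM against 21.6, 23.7 and 27.2 CPM, and its groups overlapped (-0.42 ± 0.18 SE, adjusted p = 0.0827, edgeR). Leaving out wild-type mouse 1 brought Yars2 to -0.55 with an adjusted p of 0.05, just past the threshold (edgeR). Sars2 and Rars2 had log2 fold changes of -0.42 and -0.28 without overlap, at adjusted p-values of 0.121 and 0.181 (edgeR).

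Some mitochondrial genes had values above wild type without passing the threshold. Wars2, for tryptophan, had 8.09, 7.95 and 8.34 CPM in wild-type and 12.7, 10.9 and 10.7 CPM in KO mice (log2 fold change 0.49 ± 0.19 SE, adjusted p = 0.0575, edgeR). Ears2, for glutamate, had 11.2, 12.5 and 12.6 CPM against 15.1, 14.4 and 18.4 CPM (0.40 ± 0.17 SE, adjusted p = 0.0826, edgeR). Ears2 also charges glutamate onto the glutamine transfer RNA of mitochondria, since the set holds no mitochondrial glutaminyl enzyme. Tars2, for threonine, had 27.6, 29.8 and 28.6 CPM against 36.4, 28.6 and 31.0 CPM, with overlap. Pars2, Nars2 and Mars2 all had means under 11 CPM and overlapped between the genotypes. Mars2 had 5.17, 7.32 and 8.47 CPM in wild-type mice and 5.16, 5.43 and 7.17 CPM in KO mice. Pars2 had 8.62, 7.42 and 3.65 CPM against 9.01, 6.09 and 8.35 CPM, and wild-type mouse 3 set its direction, since without that mouse the log2 fold change went from 0.25 to -0.04. At these levels a change of the size seen in Fars2 would be harder to detect, with standard errors of 0.21 for Nars2, 0.27 for Mars2 and 0.32 for Pars2. By fold of the catalytic domain, 3 of 9 class I and 3 of 7 class II mitochondrial genes were lower, beside 22.3% of all genes tested. Their medians were -0.31 and -0.42.

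**Figure D3:**
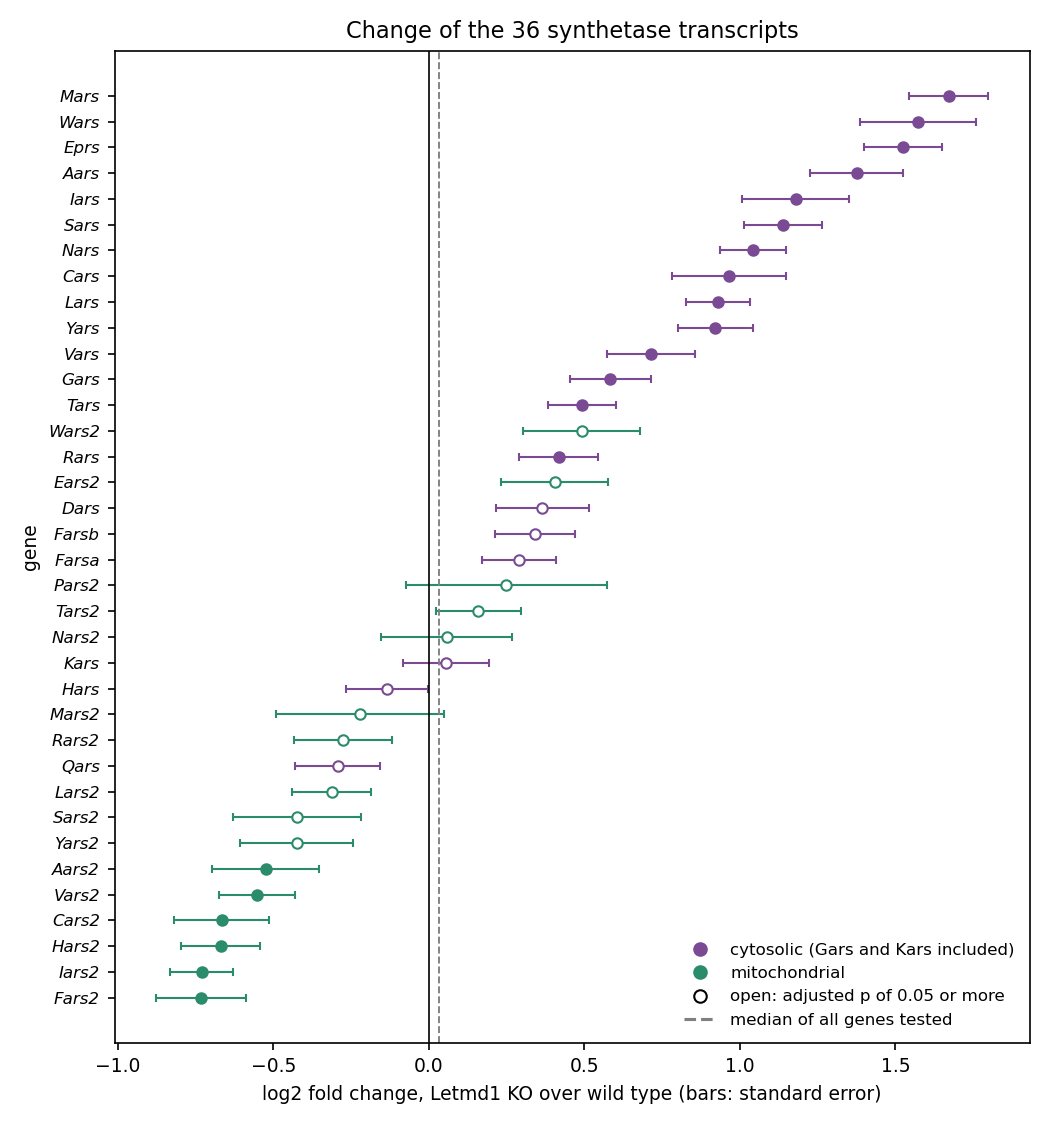
The log2 fold change of each of the 36 genes is plotted with its standard error as a bar, cytosolic and mitochondrial genes in separate colours, open points where the adjusted p was 0.05 or more and a dashed line at the median of all genes tested. The filled cytosolic points run from 0.42 to 1.67 and the filled mitochondrial points from -0.73 to -0.52.

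The enzymes for the same amino acid in the 2 compartments were then compared within each mouse, as the log2 ratio of CPM + 1, cytosolic over mitochondrial. The scaling of a library cancels in such a ratio apart from the added 1. There were 17 pairs, with Eprs and Fars2 each used in 2 of them. In all 17 pairs the ratio was higher in KO BAT, and in all 17 the groups did not overlap. How often ratios of other gene pairs lack overlap was not computed. The ratios are built from the member levels described above, so they are not independent of those changes. The median difference was 1.21. Each two-sided exact permutation test gave p = 0.1, the smallest that 3 mice against 3 can give, and the adjusted value was 0.1 for all 17.

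**Figure D4:**
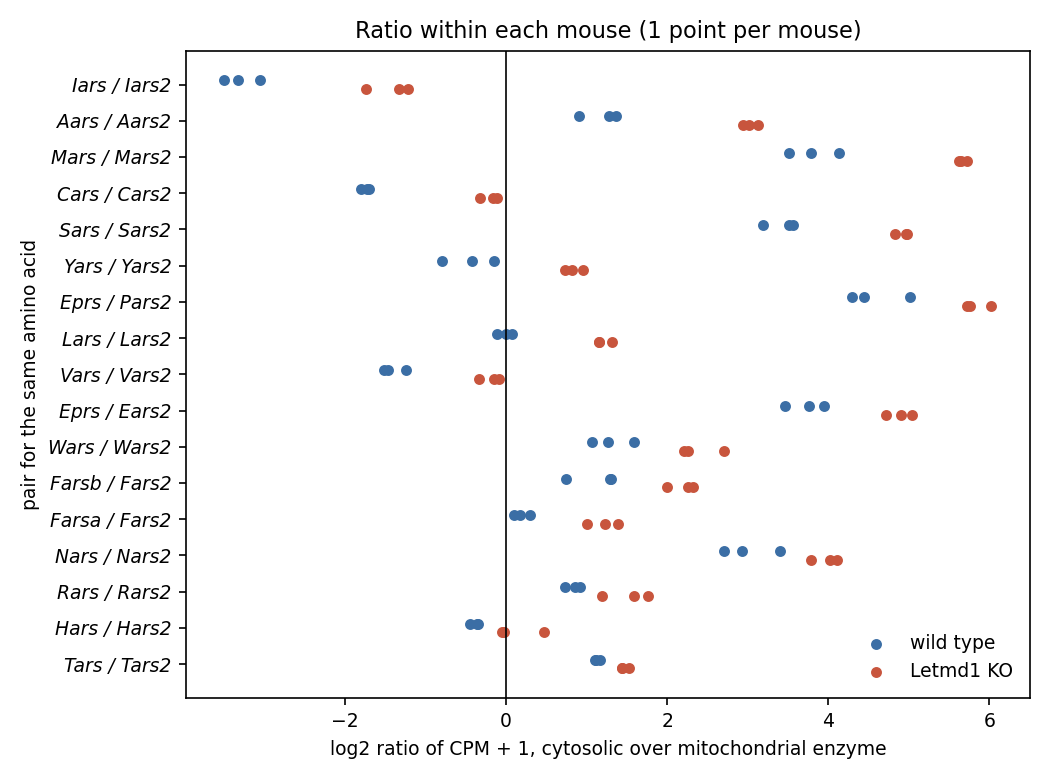
Each row is a pair of enzymes for the same amino acid, and each point is the log2 ratio of CPM + 1, cytosolic over mitochondrial, in 1 mouse. In every row the 3 KO points lie to the right of the 3 wild-type points, by 1.87 in Iars over Iars2 and by 0.34 in Tars over Tars2.

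The isoleucine pair moved most. Its log2 ratio was -3.33, -3.06 and -3.49 in wild-type mice and -1.22, -1.74 and -1.33 in KO mice, so Iars2 remained the more abundant of the pair in every mouse. On the linear scale of CPM + 1 the cytosolic level was 0.102 of the mitochondrial one in wild-type BAT and 0.371 in KO BAT. For leucine, the ratio went from 0.991 to 2.31 and for tyrosine from 0.730 to 1.79. The cysteine ratio went from 0.300 to 0.872. The alanine and methionine pairs differed by 1.85 each on the log2 scale, and the serine pair by 1.502. Histidine and threonine differed least, by 0.52 and 0.34, with ratios of 0.767 to 1.10 and of 2.19 to 2.76. The histidine pair differed with Hars itself overlapping between the genotypes, and the threonine pair with Tars2 overlapping.

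Summed over the genes, cytosolic transcripts made 1300.1, 1358 and 1347 CPM in wild-type mice and 2671, 2291 and 2607 CPM in KO mice, a ratio of means of 1.89. Mitochondrial transcripts made 606, 627 and 659 CPM against 441, 428 and 468 CPM, a ratio of 0.707. The groups did not overlap in either sum, but with library size alone the mitochondrial sums did (518, 556 and 561 CPM against 514, 485 and 546 CPM, a ratio of 0.946) while the cytosolic ratio was 2.53. The mitochondrial share of all synthetase transcripts, which does not depend on library scaling, was 32.1% ± 0.674 (SD, n = 3) in wild-type and 15.1% ± 0.801 (SD, n = 3) in KO BAT. KO mouse 2 had the lowest cytosolic sum of the KO mice and also the highest macrophage sum, 3681 CPM. It also had the lowest muscle sum of the KO mice, 376 CPM, and the fewest counts, 6669577. A link of the cytosolic sum to any of these was not tested.

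**Figure D5:**
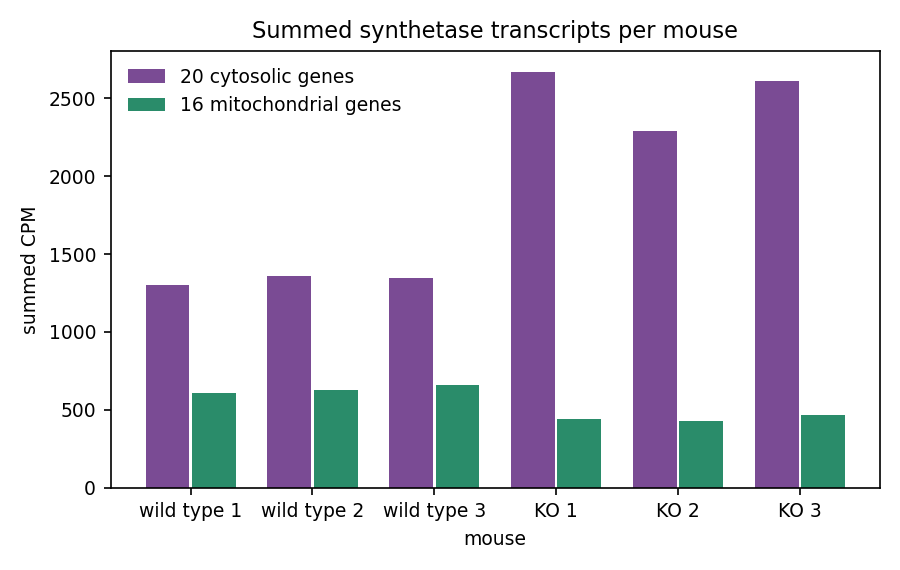
Bars from 0 give the summed CPM of the 20 cytosolic and the 16 mitochondrial genes in each of the 6 mice. The cytosolic bars of the KO mice reach 2291 to 2671 CPM, above 1358 CPM, the highest of the wild-type mice, while their mitochondrial bars stay under those of all wild-type mice on this TMM scale and overlap them with library size alone.

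A few genes carried much of these sums. Eprs gave 27.4% and Mars 20.1% of the cytosolic gain of 1188 CPM. Without Mars the cytosolic ratio was 1.77. Iars2 held 39.3% of the mitochondrial CPM in wild-type BAT and 53.2% of the decrease. Without Iars2 the mitochondrial ratio was 0.774, and the sums still did not overlap, at 372, 382 and 396 CPM against 299, 278 and 312 CPM.

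Reads from neighbouring genes bear on some members, because QuantSeq reads lie near the 3′ end. In the GENCODE annotation another gene lay over the last 500 bases of 4 cytosolic genes (Mars, Yars, Aars and Farsb) and 4 mitochondrial genes (Iars2, Fars2, Cars2 and Vars2). All 4 of the mitochondrial ones were lower in KO BAT, and of the 12 without such a neighbour 2 were lower (Hars2 and Aars2), with a median log2 fold change of -0.25. Of the 16 cytosolic genes without a neighbour 11 were higher, with a median of 0.65. Over all genes tested, 23.7% were higher and 22.3% were lower. Some of the neighbours moved like the member. C77080, which shares 30 bases with Yars, went from 5.94 to 35.1 CPM (log2 fold change 2.56, adjusted p = 7.71e-06, edgeR), and Naxd, listed as Carkd, which shares 984 bases with Cars2, was at -0.39 (adjusted p = 0.0355, edgeR). Exosc6, within the last part of Aars, did not pass (-0.14, adjusted p = 0.591), nor did Nrn1 beside Fars2 (-0.35, adjusted p = 0.436, both edgeR). Nrn1 had 4.61 CPM in wild-type and 3.57 CPM in KO BAT, well under Fars2. Sgpp2 beside Farsb had between 2 and 15 counts a mouse and was not tested. How far neighbours add to the members' counts was not tested.

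Other genes that act on transfer RNA were described by lists. Of 11 genes for charging and its quality control, 2 were higher and 2 lower, no larger shares than the 23.7% and 22.3% of all genes tested, with a median log2 fold change of -0.15. Ptrh2, a peptidyl-tRNA hydrolase, was among those higher (25.1 to 40.4 CPM, adjusted p = 0.00275, edgeR). The lower ones were Gatb, a subunit of the amidotransferase that makes mitochondrial glutaminyl-tRNA (36.5 to 25.3 CPM, adjusted p = 0.027, edgeR), and Prorsd1 (70.5 to 52.4 CPM, adjusted p = 0.035, edgeR). Dtd2, which removes D-amino acids, had the most negative value, -0.55, and did not pass (adjusted p = 0.148, edgeR).

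Genes that mature and modify mitochondrial transfer RNA had 3 lower and 0 higher of 12 tested, a share of lower genes near the 22.3% of all genes tested, with a median log2 fold change of -0.33. Hsd17b10, a subunit of mitochondrial RNase P, fell from 255 ± 13.8 to 98.6 ± 17.9 CPM (SD, n = 3; log2 fold change -1.37, adjusted p = 7.5e-05, edgeR). The log2 fold change was -1.28 for Trit1, which adds an isopentenyl group to transfer RNA (adjusted p = 0.00136, edgeR), and -0.94 for Mto1, which modifies the wobble uridine (adjusted p = 0.000238, edgeR). At the other end, Trmt5 and Pus1 had values of 0.77 and 0.44 and did not pass (adjusted p = 0.0652 and 0.131, edgeR). Of 9 mitochondrial translation factors, 6 were lower and 0 higher, beside 22.3% lower over all genes tested, with a median of -0.59. Tufm, the elongation factor that carries charged transfer RNA to the mitochondrial ribosome, fell from 76.7 to 35.9 CPM (log2 fold change -1.09, adjusted p = 9.24e-05, edgeR), and its exchange factor Tsfm from 31.9 to 16.7 CPM (-0.93, adjusted p = 0.000972, edgeR). Mrrf and Mtrf1, for recycling and release, were at -0.09 and -0.15 and did not pass.

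In the cytosol, 2 of 6 elongation factors were higher and 0 lower, beside 23.7% higher over all genes tested. The counts were the same at an unadjusted p under 0.05 (edgeR), for which the share of all genes was not computed. The log2 fold change was 0.35 for Eef1a1, which carries charged transfer RNA to the cytosolic ribosome (adjusted p = 0.0367, edgeR), and 0.36 for Eef1g (adjusted p = 0.0277, edgeR). Eef1b2, Eef1d and Eef2 were at 0.23, 0.13 and -0.12 and did not pass, nor did Eef1a2, which had a mean of 1.06 CPM in wild-type BAT.

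A list for stress signalling held Eif2ak4, other kinase genes, Atf4 and genes downstream of it. The list is thus not particular to uncharged transfer RNA. Of its 13 genes tested, 6 were higher and 0 were lower, beside 23.7% higher over all genes tested. The kinase gene Eif2ak4, which encodes GCN2, had 9.73 ± 0.421 CPM in wild-type and 12.2 ± 1.84 CPM in KO BAT (SD, n = 3; adjusted p = 0.209, edgeR). Its partner Gcn1l1 and the kinase gene Eif2ak1 were at log2 fold changes of 0.08 and -0.11 and did not pass. The kinase genes Eif2ak3 and Eif2ak2 were at 0.48 and 0.43 and did not pass either (adjusted p = 0.0689 and 0.0978, edgeR), and Sesn2, near the floor, was not tested. The 6 genes that rose were Atf4, Trib3, Chac1, Ppp1r15a, Ddit3 and Asns. Atf4 went from 238 ± 80.2 to 652 ± 92.6 CPM (SD, n = 3; log2 fold change 1.45, adjusted p = 0.000803, edgeR), and Trib3, a target and inhibitor of ATF4, from 7.63 ± 2.20 to 382 ± 51.0 CPM (5.65, adjusted p = 9.01e-07, edgeR). Chac1 was at 3.59 on the log2 scale (adjusted p = 8.9e-05, edgeR), and Ppp1r15a, whose product restores translation, went from 17.5 to 139 CPM. The values of Ddit3 are given beside Mars. Asns, which makes the asparagine that Nars charges, was at 0.66 (adjusted p = 0.00249, edgeR), below the 1.04 of Nars.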

How the data were processed

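BAT of 3 wild-type and 3 Letmd1 KO mice was profiled with QuantSeq 3′ libraries. Bowtie2 was used by the authors to align the single-end 75-base reads and Bedtools to count alignments on genes, those at several places included. They deposited whole-number counts per mouse, not normalized. The submitters' processing notes name build mm10; annotation, tool versions and use of strand are not given in the sources used here. Since reads with several alignments were counted, genes with near-identical copies are uncertain.

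The analysis used edgeR 4.0.16, DESeq2 1.42.0 and limma 3.58.1 under R 4.3.3, and figures were drawn with Python 3.11.15 and matplotlib 3.10.9. Of 23282 rows, 5588 had no counts and 12995 passed edgeR's default filter (minimum count 10, minimum total 15). Genotypes were compared by the quasi-likelihood test of edgeR after TMM scaling, Benjamini-Hochberg adjustment over all genes tested and a threshold of 0.05. Ratios within a mouse used CPM + 1 and a two-sided exact permutation test. The floor is 3 counts and covers counting error only. On counts simulated from these mice for KO against wild type, 119 of 197 changed genes were found by edgeR, with 11 false calls among 12730 others. Both genotypes were simulated from the same mean profile. Errors from the difference in scaling factors between the genotypes were therefore not covered. Samples were grouped by the genotype label. The members, lists and tests were chosen with earlier results of these data known. Every member could be named, and of other lists the 2 highest and 2 lowest changes, or all of a list of 6 or fewer. Prorsd1, Mto1, Ppp1r15a, Atf4, Asns, Eif2ak2, Eif2ak3 and Sesn2 were named after their values were seen, and Ddit3 and other neighbours because they overlap members. Alternatives were library size alone, quantile normalization (the paper's normalization, here tested with limma), DESeq2, other filters and thresholds, rows summed per symbol, a replicate block, a muscle covariate, another pseudocount, other motifs and leaving out each mouse. Positions came from GENCODE vM21 on GRCm38 and promoters from RefSeq on GRCm38.p6. A few genes of the lists are not reported here by name.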

Additional observations from a re-analysis of the deposited data

How the results depend on the processing

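The count of 14 cytosolic genes higher and 0 lower was the same with DESeq2, without the filter and with rows summed per symbol, and lay between 13 and 15 with each mouse left out. It was 18 with library size alone, 17 with quantile normalization and 17 with a filter at a mean of 50 counts. A 2-fold threshold left 7 cytosolic and 0 mitochondrial genes. With library size alone, the median of all genes went from 0.03 to 0.45 and 1368 genes were lower and 5899 higher, 81.2% of calls against 51.6%; the cytosolic median was 1.24, the mitochondrial median turned to 0.0535, 3 mitochondrial genes were higher and 1 lower. That scaling also turned Hars to 0.29, Qars to 0.13, Lars2 to 0.11, Mars2 to 0.20 and Rars2 to 0.14. A filter at a mean of 50 counts called Wars2 as the only mitochondrial gene higher (1). With the muscle covariate 3592 genes passed in place of 5978, and 3 mitochondrial genes were lower. Mitochondrial genes lower numbered 5 to 7 with each mouse left out. Small changes also turned, to -0.03 and -0.045 in Kars (without wild-type mouse 1 or KO mouse 2, within a range of -0.045 to 0.16 over the mice left out), to -0.19, -0.14 and -0.11 in Nars2 (quantile normalization, the muscle covariate and without wild-type mouse 3, within -0.11 to 0.17 over the mice left out) and to -0.026 and -0.041 in Pars2 (quantile normalization and without wild-type mouse 3, within -0.041 to 0.49). Over the refits at an adjusted p of 0.05 without a fold minimum, the added one not counted, 11 of 20 cytosolic and 1 of 16 mitochondrial genes kept their call and direction.

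Mice with the same replicate number showed no sign of deviating together (correlations 0.0691, -0.111 and -0.0865). Mice with different numbers had correlations from -0.0931 to 0.191. The labels do not say how the mice were numbered, so this check cannot exclude a pairing. With the replicate block, 14 cytosolic genes were higher and 7 mitochondrial genes lower. Chosen after seeing the data, leaving out both mice with the most muscle marker counts gave 12 and 4. TGATGNAAT was found in 3 of 13 cytosolic and 0 of 14 mitochondrial genes with a window, beside 1.08% of all genes with one. GCATGCGC, the core of the NRF1 site, added later, was found in 0 of the 13 and 3 of the 14 (Rars2, Vars2 and Wars2), beside 3.05% of all genes. The lowest member count in a mouse was 28, and counting error limits members at such levels.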
